A study of Mus musculus with 28 samples.

Results

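The constitutive proteasome subunits were examined in bulk RNA-seq of mouse mesothelioma tumors treated with chemotherapy, immune checkpoint blockade (ICB), or both. Members were all genes named Psma, Psmb, Psmc or Psmd plus a number, without the interferon-induced Psmb8, Psmb9 and Psmb10 and without genes under 10 counts in every tumor. The rule gave 36 genes of 55341 gene names, and 35 of the 36 had enough counts to be tested. The exception was Psmb11, the catalytic subunit of the thymus proteasome, with a median of 2.77 counts and 2 tumors at or over 10. Psma8, the testis counterpart of Psma7, was tested but low, at 7 to 39 counts. The other 34 members had at least 595 counts in every tumor.

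The 26S proteasome degrades proteins that carry ubiquitin chains. Its 20S core is a barrel of alpha rings, which gate the entrance, around beta rings, where Psmb5, Psmb6 and Psmb7 carry the chymotrypsin-like, caspase-like and trypsin-like activities. The 19S cap has a base, with the ATPases Psmc1 to Psmc6 that unfold the substrate, and a lid, where Psmd14 removes the ubiquitin chain. Under interferon signalling, newly built cores take up Psmb8, Psmb9 and Psmb10 in place of the constitutive catalytic subunits, and this immunoproteasome is known for making peptides for MHC class I presentation.

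All tumors were AB1-HA, a BALB/c mesothelioma line carrying influenza haemagglutinin and grown under the skin of BALB/c.AusBP mice, and all were collected at day 7. Controls received PBS (n = 4). ICB was anti-CTLA-4 plus anti-PD-L1 at 100 µg of each antibody (n = 5), 5-FU was given at 75 mg/kg (n = 5) and cisplatin at 6 mg/kg (n = 4). The combinations 5-FU+ICB and Cisplatin+ICB used the same doses (n = 5 each). The line is a single transplanted tumor model outside the pleura, and each library came from a whole tumor with its host cells.

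Libraries held 23541733 to 33950805 counts and the members took 0.369 to 0.963% of them. Of the 7 mesothelial markers, Msln and Pdpn were present in the PBS tumors, whereas Wt1, Upk3b, Lrrn4, Krt19 and Gpm6a were under 1 CPM, the usual scaling of counts to the size of the library. Tumor 1 of Cisplatin+ICB stood apart from all the others. Ribosomal protein genes took 15.5% of its counts, against 3.89 to 9.55% in the other tumors. Tumors also differed in how far genes with short transcripts stood above genes with long ones. This length balance was the median log2 deviation of genes of 500 to 2000 nt minus that of genes over 5000 nt. It was 2.31 in Cisplatin+ICB 1, 1.25 in PBS 2, 0.78 in Cisplatin 4, 0.67 in PBS 1 and 0.30 in Cisplatin 2, and lay between -0.39 and 0.12 in the other 23 tumors. Most members are short: 26 of the 36 have a main transcript of at most 2000 nt. Results are therefore also given with the length trend removed, without PBS 1 and 2, and without Cisplatin+ICB 1.

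In PBS tumors the members were compared per kilobase of transcript. Psma7 was the highest, at 322 CPM per kb, followed by the catalytic Psmb6 at 254 and the beta-ring subunits Psmb4 at 222 and Psmb3 at 205. The 4 beta-ring subunits without catalytic activity lay close together, from 169 to 222 CPM per kb. The ATPases lay between 63.0 and 168 and the lid between 43.6 (Psmd11) and 165. The chaperones of 19S assembly were lower, with Psmd10 at 25.9, Psmd5 at 18.5 and Psmd9 at 17.1. Psma8 was at 0.352 and Psmb11 at 0.0121 CPM per kb, so transcripts of the forms known from testis and thymus were scarce in these tumors. Protein was not measured.

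Proteasome genes are known targets of the transcription factors Nfe2l1 and Nfe2l2, which bind antioxidant response elements. The core of that element, TGACNNNGC, was searched on both strands in RefSeq promoters (GRCm38.p6, 250 bases before to 50 after the start), which matched 29 of the 36 members. It occurred in 5 of 31 member promoters (16.1%), against 12.4% of all 32851 promoters of the same length. The CCAAT box occurred in 12 of 31 (38.7%), against 37.4% of all promoters, and no member promoter held both motifs. Members with the TGACNNNGC core were Psmb5, Psmb6, Psmc6, Psmd9 and Psmd12. The 100 bases before the start are shown for Psmb5 and Psmb6, because these catalytic genes are at the centre of the results, with the core in capitals. The Psmb5 stretch is chr14:54617996-54618095 on the minus strand, and its core begins 47 bases before the start. The Psmb6 stretch is chr11:70525257-70525356 on the plus strand, and its core begins 9 bases before the start. A match is a description of the letters, and no binding was measured.
Psmb5: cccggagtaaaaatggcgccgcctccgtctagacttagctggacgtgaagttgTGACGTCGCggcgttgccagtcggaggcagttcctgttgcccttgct
Psmb6: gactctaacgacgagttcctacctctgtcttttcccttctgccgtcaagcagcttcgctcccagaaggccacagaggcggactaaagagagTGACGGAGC

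The summed level of the members was highest in Cisplatin+ICB 1 and next in PBS 2 and PBS 1. The 4 PBS tumors had sums of 6107, 7824, 5106 and 4813 CPM. The ICB tumors had 3957, 3745, 4233, 4194 and 4536 CPM, all below every PBS tumor. The 5-FU tumors had 3875, 4692, 4132, 3949.8 and 3843 CPM, also below every PBS tumor. In 5-FU+ICB the sums ran from 3406 to 5067 CPM and in Cisplatin from 3489 to 5869 CPM, and both overlapped PBS. In Cisplatin+ICB, tumor 1 was at 14068 CPM and the other 4 lay between 3612 and 3998. Group means ± SD were 5963 ± 1359 CPM for PBS (n = 4), 4133 ± 299 for ICB (n = 5), 4098 ± 350.2 for 5-FU (n = 5), 4460 ± 635 for 5-FU+ICB (n = 5) and 4868 ± 1082 for Cisplatin (n = 4). These sums are a description with no test. In bulk tumors, fewer cells of a type and less RNA per cell cannot be told apart.

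**Figure D1:**
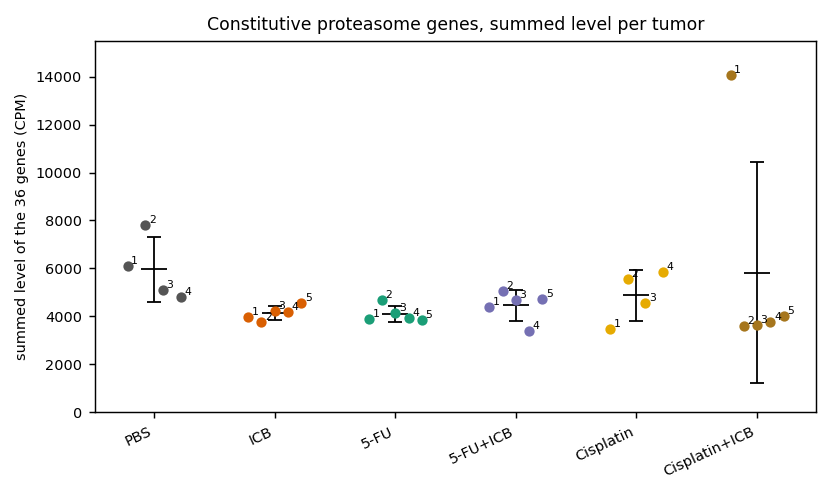
Summed CPM of the 36 constitutive proteasome genes (vertical axis) in each of the 28 tumors by treatment group, with points numbered by tumor and bars for mean ± SD. PBS 2 (7824) and Cisplatin+ICB 1 (14068) are the highest tumors, and all ICB and 5-FU tumors lie below the lowest PBS tumor (4813).

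The comparison of each treatment with PBS asks which subunits changed with that treatment. In the fit to the 4 groups of one matrix, most constitutive subunits were called lower in ICB, 5-FU and 5-FU+ICB than in PBS. No member was called higher. Members were tested with edgeR's quasi-likelihood test over all genes, and a gene passed at an adjusted p under 0.05. In ICB, 24 of the 35 tested members fell, against 21.9% of all genes. In 5-FU, 25 of 35 fell, against 15.6% of all genes, and in 5-FU+ICB 20 of 35 fell, against 22.4%. The median log2 fold change of the members was -0.61 in ICB, -0.59 in 5-FU and -0.44 in 5-FU+ICB, whereas that of all genes tested was -0.03 in ICB. Groups did not overlap, with every treated tumor lower, for 22 members in ICB (21.6% of all genes), 21 in 5-FU (17.8%) and 4 in 5-FU+ICB (14.7%). The 4 of 35 in 5-FU+ICB was not above the share of all genes. The 3 comparisons share the 4 PBS tumors, so they are not independent of each other. The calls also depended on the tumors in the fit. With the compared groups alone 19, 9 and 2 members fell, against 22.1%, 11.5% and 11.8% of all genes. With all 6 groups in one fit 7, 0 and 0 fell, against 13.6%, 1.84% and 13.8%. In both of these fits the count in 5-FU+ICB lay below the share of all genes. The medians hardly moved, at -0.58, -0.54 and -0.38 with the compared groups alone and -0.61, -0.59 and -0.44 with all 6 groups, and the calls given below for single subunits are those of the fit to the 4 groups of one matrix.

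Transcript length and the PBS tumors with a high length balance moved with these counts. Among all genes of 500 to 2000 nt, 1858 of 5897 fell in ICB, 1525 in 5-FU and 1812 in 5-FU+ICB, so short genes in general fell more often than all genes. Members of at most 2000 nt fell in 20 of 26 cases in ICB, 21 in 5-FU and 16 in 5-FU+ICB, and longer members in 4 of 9 in each comparison. With the length trend of every tumor removed, 19 members fell in ICB, 15 in 5-FU and 10 in 5-FU+ICB, against 23.5%, 13.4% and 23.6% of all genes. The 10 of 35 in 5-FU+ICB then lay near the share of all genes. The median log2 fold changes were then -0.35, -0.32 and -0.22. Without PBS 2 alone, 17, 7 and 6 members fell, against 15.6%, 5.24% and 15.2% of all genes, so the 6 of 35 in 5-FU+ICB lay near the share of all genes. Without PBS 1 alone, 21 fell in ICB, 12 in 5-FU and 12 in 5-FU+ICB, against 16.4%, 7.54% and 16.3% of all genes, and the low Psma8 rose in ICB (log2 1.18, adjusted p = 0.0493). Without 5-FU+ICB 4, 11 fell in 5-FU+ICB, against 18.5%. The same PBS and ICB tumors fitted in the matrix that holds the cisplatin groups gave 4 of 35 members lower in ICB, against 11.7% of all genes. Without both PBS 1 and PBS 2, only Psmb5 and Psmc5 fell in ICB and no member in 5-FU or 5-FU+ICB, against 4.4%, 0.285% and 2.9% of all genes. The medians stayed below 0, at -0.28, -0.20 and -0.12. The share of counts from ribosomal protein genes was 5.72 to 9.55% in PBS, 3.97 to 4.69% in ICB, 4.02 to 4.68% in 5-FU and 3.89 to 6.82% in 5-FU+ICB. The mitochondrial share was 1.53 to 2.37% in PBS, 2.69 to 4.82% in ICB, 2.72 to 6.80% in 5-FU and 2.33 to 16.1% in 5-FU+ICB. ICB and 5-FU thus overlapped PBS in neither share, and the part of these shares in the fall of the subunits was not tested.

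**Figure D2:**
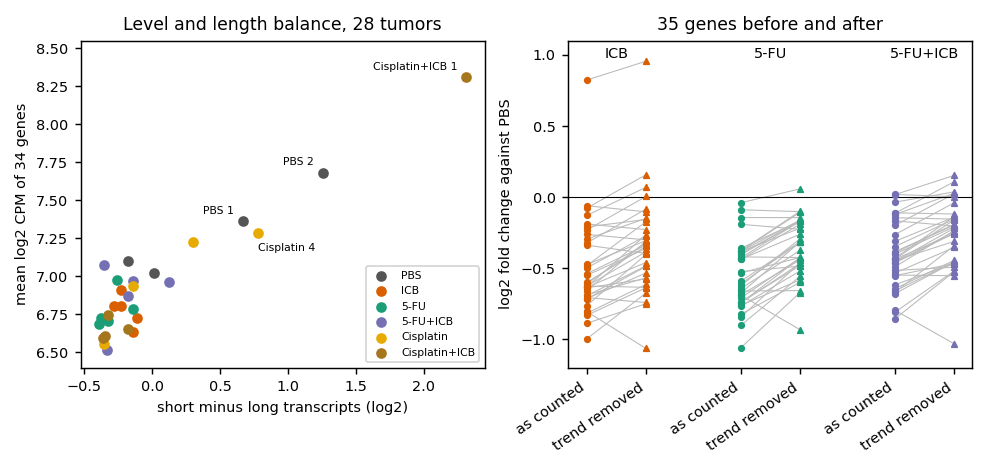
Left, mean log2 CPM of the 34 well-covered members (vertical axis) against the length balance (median log2 deviation of short minus long genes, horizontal axis) in the 28 tumors. PBS 1, PBS 2, Cisplatin 2, Cisplatin 4 and Cisplatin+ICB 1 lie to the right with high member levels. Right, log2 fold change against PBS of the 35 tested members as counted and with the length trend removed, for ICB, 5-FU and 5-FU+ICB, where the median moves from -0.61, -0.59 and -0.44 to -0.35, -0.32 and -0.22.

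The catalytic subunits fell in all 3 groups as counted, and Psmb5 alone of them still passed in all 3 with the length trend removed. Psmb5, the chymotrypsin-like subunit and the main target of proteasome inhibitors such as bortezomib, was at 99.2, 154, 79.3 and 77.4 CPM in PBS. In ICB it was at 46.3, 48.4, 48.7, 52.9 and 59.8 CPM, in 5-FU at 52.7, 65.2, 56.7, 53.4 and 48.3, and in 5-FU+ICB at 53.8, 70.3, 63.4, 43.4 and 61.6. All 15 treated tumors lay below the lowest PBS tumor. The log2 fold change was -0.998 ± 0.192 (SE) in ICB (adjusted p = 0.00109), -0.90 ± 0.19 in 5-FU (adjusted p = 0.00608) and -0.81 ± 0.19 in 5-FU+ICB (adjusted p = 0.00357). With the length trend removed it was at -0.67, -0.56 and -0.52. Without PBS 1 and PBS 2 it passed in ICB, at -0.53 (adjusted p = 0.0329), and not in 5-FU (-0.43, adjusted p = 0.2) or 5-FU+ICB (-0.34, adjusted p = 0.115). With all 6 groups in one fit it passed in none of the 3 (adjusted p = 0.0679, 0.157 and 0.129), and neither did Psmb6 or Psmb7. With the compared groups alone Psmb5 passed in all 3, Psmb7 in ICB and 5-FU, and Psmb6 in none.

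Reads of Psmb5 cannot be fully told from those of a near-identical copy. Of the 31-base words in its transcripts, 71.7% also occur in other genes and 59.8% in Gm3375, which received up to 56.8% as many counts as Psmb5. Gm3375 itself fell, with log2 fold changes of -0.999 in ICB, -1.05 in 5-FU and -0.96 in 5-FU+ICB. With its counts added, Psmb5 was at -0.999 ± 0.200 in ICB (adjusted p = 0.00134), -0.95 in 5-FU and -0.86 in 5-FU+ICB, and the counts of members that fell were the same, 24, 25 and 20.

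Psmb6, the caspase-like subunit, was at 198, 331, 144 and 139 CPM in PBS. It was at 121, 134, 130.1, 121 and 149 CPM in ICB, at 107, 129.6, 122, 113 and 100.4 in 5-FU and at 139, 132, 144, 93.2 and 133 in 5-FU+ICB. PBS 2 was far above the rest, and only the 5-FU tumors lay wholly below PBS. The log2 fold change was -0.63 ± 0.22 in ICB (adjusted p = 0.0273), -0.85 ± 0.22 in 5-FU (adjusted p = 0.0126) and -0.67 ± 0.22 in 5-FU+ICB (adjusted p = 0.0196). It did not pass without PBS 2, at -0.25, -0.46 and -0.29, and without both PBS 1 and 2 it was at -0.03 in ICB. With the length trend removed it passed in 5-FU, at -0.46 (adjusted p = 0.0426), and not in ICB (-0.27, adjusted p = 0.174) or 5-FU+ICB (-0.34, adjusted p = 0.0777). Its ICB call was also lost without PBS 1 or without ICB 1, 2 or 3 (adjusted p between 0.0505 and 0.059), and its 5-FU+ICB call without 5-FU+ICB 4 (adjusted p = 0.0509).

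Psmb7, the trypsin-like subunit, was at 194, 233, 162 and 142 CPM in PBS. It was at 109, 97.0, 129, 117 and 138 CPM in ICB, at 116, 142, 121, 114 and 117 in 5-FU and at 126, 144, 139, 96.0 and 157 in 5-FU+ICB. The ICB and 5-FU tumors lay below PBS, although the highest 5-FU tumor and the lowest PBS tumor both round to 142 CPM, and 5-FU+ICB overlapped PBS. The log2 fold change was -0.63 ± 0.16 in ICB (adjusted p = 0.00648), -0.59 ± 0.16 in 5-FU (adjusted p = 0.017) and -0.46 ± 0.16 in 5-FU+ICB (adjusted p = 0.0305). The 5-FU and 5-FU+ICB calls were lost without PBS 2, at -0.42 and -0.29, and without PBS 1, at -0.55 and -0.42. The 5-FU+ICB call was also lost without 5-FU+ICB 1 or 4 (-0.44 and -0.37). With the length trend removed it passed in ICB, at -0.39 (adjusted p = 0.0278), and not in 5-FU (-0.31, adjusted p = 0.0943) or 5-FU+ICB (-0.24, adjusted p = 0.141).

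The 4 other beta-ring subunits, Psmb1, Psmb2, Psmb3 and Psmb4, which build the ring without a catalytic site, fell in ICB (log2 -0.71, -0.48, -0.66 and -0.60) and in 5-FU (-0.82, -0.62, -0.68 and -0.61). In 5-FU+ICB only Psmb2 passed, at -0.44 (adjusted p = 0.0237). After removal of the length trend only Psmb1 of these passed in ICB (-0.53), Psmb1 and Psmb2 in 5-FU (-0.60 and -0.29) and none in 5-FU+ICB, where Psmb2 was at -0.16 (adjusted p = 0.197). Of the 8 alpha-ring genes, 4 fell in ICB, 4 in 5-FU and 3 in 5-FU+ICB, against 21.9%, 15.6% and 22.4% of all genes. After removal of the length trend 2, 3 and 2 fell, against 23.5%, 13.4% and 23.6%, so the counts in ICB and 5-FU+ICB were then near the share of all genes. Psma1 was at 188, 207, 147 and 143 CPM in PBS and at 110.0, 128, 104, 102 and 104 in 5-FU, with every 5-FU tumor lower (log2 -0.64 ± 0.14, adjusted p = 0.00688). Psma7 was at -1.06 ± 0.26 in 5-FU (adjusted p = 0.0102). Its PBS tumors were at 276, 546, 175 and 181 CPM and its 5-FU tumors at 134, 167, 142, 134 and 141, with PBS 2 far above the other PBS tumors. It was at -0.53 without PBS 2 (adjusted p = 0.0418) and at -0.67 with the length trend removed (adjusted p = 0.021). Psma3 fell in all 3 groups (-0.71, -0.66 and -0.55) and also with the counts of its copies Gm13835 and Gm4742 added (-0.68, -0.64 and -0.54). Psma6 fell in ICB and 5-FU (-0.61 and -0.75), but not with the length trend removed (-0.32 and -0.43, adjusted p = 0.093 and 0.0511). Psma2, Psma4 and Psma5 did not pass in any of the 3, with values between -0.42 and -0.08. Psma8 was at 0.82 ± 0.41 in ICB (adjusted p = 0.114), on 0.305 to 0.973 CPM in PBS and 0.731 to 1.47 in ICB.

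In the 19S base, 5 of the 6 ATPases, which thread the substrate into the core, fell in each of the 3 groups. Of all genes, 21.9% fell in ICB, 15.6% in 5-FU and 22.4% in 5-FU+ICB. The same 5, after removal of the length trend, fell in ICB, but only Psmc3 and Psmc6 in 5-FU and in 5-FU+ICB. The shares of all genes were then 23.5%, 13.4% and 23.6%, so the count in 5-FU+ICB was near its share. Psmc5 had the smallest p in ICB. It was at 161, 189, 142 and 132 CPM in PBS and at 91.7, 88.4, 100.5, 94.5 and 102 in ICB, with no overlap. Its log2 fold change was -0.70 ± 0.13 in ICB (adjusted p = 0.00107), -0.43 in 5-FU (adjusted p = 0.0276) and -0.39 in 5-FU+ICB (adjusted p = 0.0241). It still passed in ICB without PBS 1 and 2, at -0.44 (adjusted p = 0.0367), and with the length trend removed, at -0.48. In that fit it was at -0.17 in 5-FU (adjusted p = 0.263) and -0.19 in 5-FU+ICB (adjusted p = 0.162). Psmc3 had the largest falls of the ATPases, at -0.83, -0.69 and -0.65. Psmc1, Psmc4 and Psmc6 also fell in all 3, with values from -0.64 to -0.31. Psmc2 did not pass in any, at -0.30, -0.36 and -0.12.

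Of the 3 base subunits that are not ATPases, Psmd4 alone passed as counted, and a difference between the 3 was not tested. Psmd4, a ubiquitin receptor, was at 185, 254, 148 and 140.0 CPM in PBS, at 111, 123, 99.2, 111 and 101 in 5-FU and at 109, 132, 122, 90.0 and 114 in 5-FU+ICB. All tumors of ICB, 5-FU and 5-FU+ICB lay below PBS, with log2 fold changes of -0.72 in ICB, -0.75 ± 0.16 in 5-FU (adjusted p = 0.00704) and -0.68 ± 0.16 in 5-FU+ICB (adjusted p = 0.00388). The large scaffold subunits Psmd1 and Psmd2 did not pass. Psmd1 was at -0.34 in ICB (adjusted p = 0.0657), although all ICB tumors (143 to 202 CPM) lay below all PBS tumors (217 to 250.2). It passed in ICB with the length trend removed (-0.40, adjusted p = 0.0334), where Psmd4 was at -0.49. Psmd2 was at -0.06, -0.09 and 0.02, with 246 to 313 CPM in PBS and 216 to 301 in ICB.

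Of the 8 lid subunits, 5 fell in ICB, 5 in 5-FU and 5 in 5-FU+ICB, against 21.9%, 15.6% and 22.4% of all genes. After removal of the length trend 5, 3 and 2 fell, against 23.5%, 13.4% and 23.6%, so the count in 5-FU+ICB was then near the share of all genes. Psmd14, the deubiquitinase of the lid, was at 168, 224, 127 and 121 CPM in PBS and at 95.5, 79.6, 84.2, 95.1 and 98 in ICB. In 5-FU+ICB it was at 93.4, 124, 100.3, 78.5 and 110.3 CPM, where tumor 2 overlapped PBS. Its log2 fold change was -0.82 ± 0.18 in ICB (adjusted p = 0.00224) and -0.66 ± 0.18 in 5-FU+ICB (adjusted p = 0.00757). Psmd7, its partner in the lid, was at 183, 209.6, 169.7 and 154 CPM in PBS and at 114, 101, 115, 117 and 123 in ICB, with no overlap (-0.63 ± 0.14, adjusted p = 0.00236). Psmd13 fell in all 3 (-0.89, -0.76 and -0.62), as did Psmd6 (-0.54, -0.44 and -0.40), and Psmd12 fell in ICB and 5-FU+ICB (-0.69 and -0.45). Psmd6 with the length trend removed was at -0.34, -0.19 and -0.21 and passed in ICB alone, and Psmd12 was at -0.31 in 5-FU+ICB (adjusted p = 0.102). Psmd3 and Psmd11, a scaffold and a structural subunit of the lid, did not pass in any, with values between -0.21 and -0.04.

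Psmd8 of the lid passed in 5-FU but not in ICB or 5-FU+ICB, as did the chaperone Psmd10, and 5-FU was not tested against ICB. It was at 265, 337, 204 and 209.7 CPM in PBS and at 131, 156, 181, 138 and 143 in 5-FU, all below PBS (-0.77 ± 0.17, adjusted p = 0.0077). In ICB it was at 210.0, 241, 239, 205 and 259 CPM, within the range of PBS (-0.13 ± 0.17, adjusted p = 0.56). Its difference between 5-FU+ICB and 5-FU was 0.42 ± 0.16, the smallest p of the members in that comparison, and did not pass (adjusted p = 0.224). Of the 3 chaperones that guide 19S assembly and are not part of the finished particle, Psmd5 and Psmd9 fell in all 3 groups. Psmd5 was at 83.2, 118, 61.7 and 62.8 CPM in PBS and at 38.5, 62.8, 49.1, 38.7 and 45.4 in 5-FU+ICB, where tumor 2 reached the lower PBS tumors (-0.80 ± 0.19, adjusted p = 0.00417). Psmd10, also known as gankyrin, fell in 5-FU (-0.71, adjusted p = 0.0259, and -0.43, adjusted p = 0.0726, with the length trend removed) and was at -0.23 in ICB (adjusted p = 0.4).

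**Figure D3:**
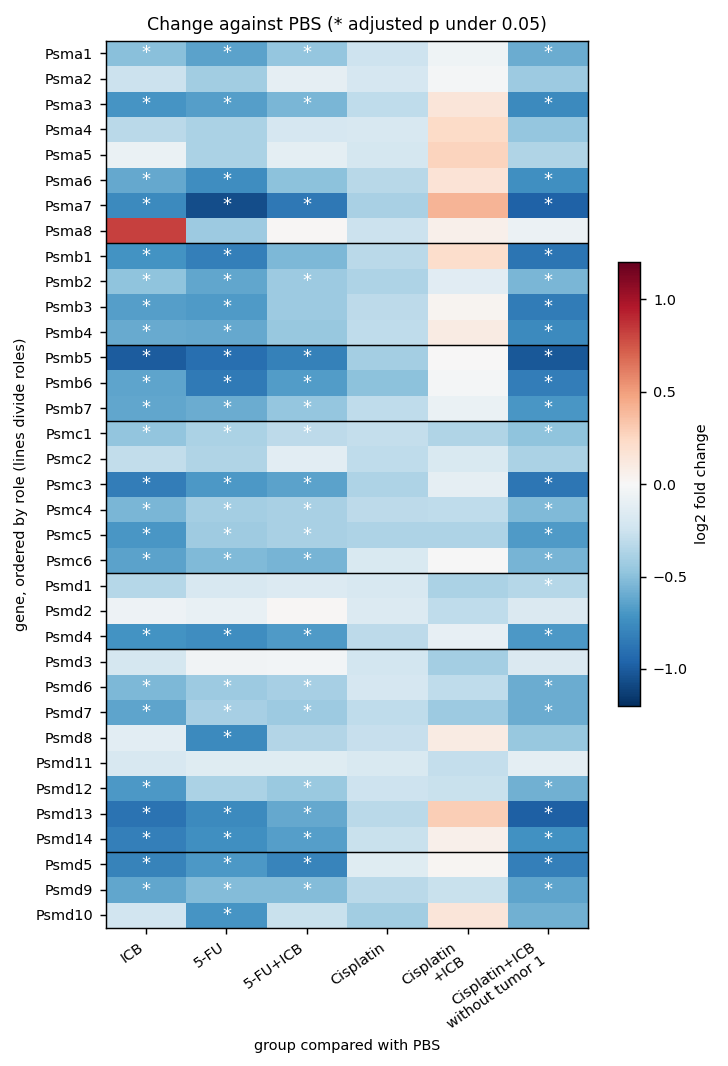
Log2 fold change against PBS (colour) of the 35 tested members in rows by role, for ICB, 5-FU, 5-FU+ICB, Cisplatin, Cisplatin+ICB and Cisplatin+ICB without tumor 1, with an asterisk where the adjusted p is under 0.05. ICB, 5-FU and 5-FU+ICB are mostly blue, with 24, 25 and 20 asterisks, and Psma8 is red in ICB. Cisplatin and Cisplatin+ICB have no asterisk, and Cisplatin+ICB without tumor 1 has 25.

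Cisplatin alone gave no call. All 35 tested members had a log2 fold change below 0 against PBS, with a median of -0.30, but none passed and none reached an unadjusted p under 0.05, against 1.78% of all genes. By edgeR no gene of 17819 passed in this comparison (0%), and 317 reached an unadjusted p under 0.05. DESeq2 also called no member. Psmc1 had the smallest p, at -0.29 ± 0.18 (adjusted p = 1), with 173, 178, 154 and 145 CPM in PBS and 104, 144, 137 and 147 in Cisplatin. Psmb5 was at 50.8, 97.6, 68.7 and 90.0 CPM in Cisplatin. The 2 Cisplatin tumors with the higher Psmb5, tumors 2 and 4, were those with a high length balance. Without PBS 1 and 2 the median of the members was -0.0023.

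Cisplatin+ICB depended on tumor 1. In that tumor 29 of the 34 well-covered members were above all 27 other tumors, and 31 were above the other 4 tumors of the group. Its ratio to the mean of the other 4 had a median of 3.68 and ran from 0.477 to 9.27, with a median of 4.01 for members of at most 2000 nt and 2.65 for longer ones. Psmb5 was at 315 CPM in tumor 1 and at 42.9, 48.5, 50.4 and 52.8 in the others. Psma7 was at 1354 CPM in tumor 1 and at 143, 132, 157 and 152 in the others. With all 5 tumors no member passed against PBS, against 6.3% of all genes that passed in either direction, and the median was -0.03. An unadjusted p under 0.05 was reached by 2 members, against 23.6% of all genes. The smallest p was that of Psmd1, with 184, 165, 172, 157 and 180.0 CPM in Cisplatin+ICB (-0.38 ± 0.14, adjusted p = 0.103), a member in which tumor 1 did not stand out. It passed without tumor 1, at -0.34 (adjusted p = 0.0313).

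Without tumor 1, the members in Cisplatin+ICB were lower than in PBS. Of the 35 tested, 25 fell, against 21% of all genes, with a median log2 fold change of -0.60 against 0.00 for all genes and a range from -1.02 to -0.07. By role, 4 of 8 alpha-ring genes, all 4 other beta-ring genes, Psmb5, Psmb6 and Psmb7, 5 of 6 ATPases, 2 of 3 other base genes, 5 of 8 lid genes and 2 of 3 chaperones fell. Psmb5 was at -1.02 ± 0.24 (adjusted p = 0.00518), Psmd13 at -0.98 ± 0.28 (adjusted p = 0.0139) and Psma7 at -0.97 ± 0.35 (adjusted p = 0.037). With the length trend also removed, 24 fell, against 22.9% of all genes, with a median of -0.42 against -0.05 for all genes. These values were chosen after seeing the data. PBS 1 and PBS 2, which also had a high length balance, were kept in these fits. Leaving them out together with tumor 1 was not tested. What set tumor 1 apart was not tested.

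**Figure D4:**
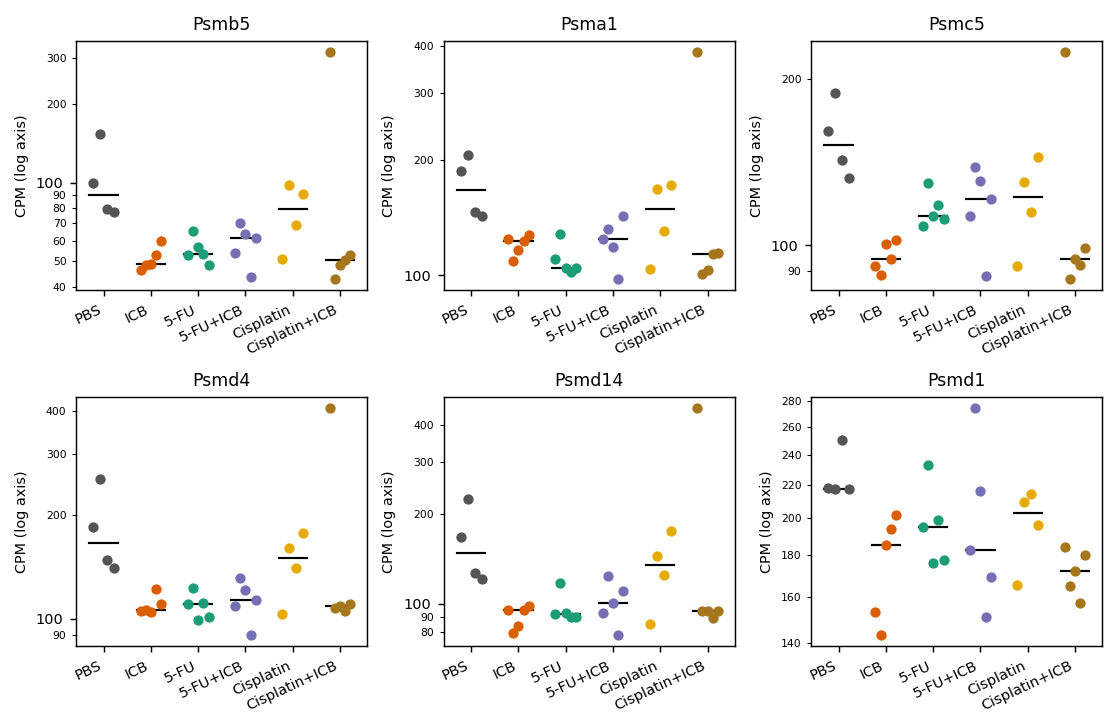
CPM on a log axis (vertical) of Psmb5, Psma1, Psmc5, Psmd4, Psmd14 and Psmd1 in each of the 28 tumors by treatment group, with a line at the median of each group. Cisplatin+ICB 1 is the highest tumor for Psmb5 (315) and Psmd14 (455) but not for Psmd1 (184), and the ICB tumors lie below the PBS tumors in all 6 genes.

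Comparisons between treated groups asked whether a combination differed from its parts, and no member passed in any of them. Between 5-FU+ICB and ICB the median was 0.15, with Psmc5 at 0.30 ± 0.13 (adjusted p = 0.385), 1 member at an unadjusted p under 0.05 (10.9% of all genes) and 0.229% of all genes passing. Between 5-FU+ICB and 5-FU the median was 0.11, with 2 members at an unadjusted p under 0.05 (16.6% of all genes) and 0.0112% of all genes passing. Between Cisplatin+ICB and ICB the median was 0.42 with tumor 1 and -0.09 without it, with 3 members at an unadjusted p under 0.05 (15.9% of all genes), 0% of all genes passing and Psma8 at -0.75 ± 0.34 (adjusted p = 0.301). Between Cisplatin+ICB and Cisplatin it was 0.22 with tumor 1 and -0.33 without it, with Psmd1 at -0.19 ± 0.14 (adjusted p = 0.624) 0 members at an unadjusted p under 0.05 (14.2% of all genes) and 0% of all genes passing. Between 5-FU and Cisplatin the median was -0.28, with Psmd8 at -0.48 ± 0.30 (adjusted p = 0.439), 0 members at an unadjusted p under 0.05 (15.5% of all genes) and 0.362% of all genes passing. DESeq2 called no member in these 5 comparisons. A p that misses the threshold does not show that the levels were equal.

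The interaction of 5-FU with ICB tests whether the combination departs from the sum of the log2 effects of each treatment. The members had a median interaction of 0.67, so the combination was not as low as that sum. It was 0.45 with the length trend removed. By edgeR no member passed (0.0893% of all genes did), the smallest adjusted p was 0.0665, and 29 members reached an unadjusted p under 0.05 in the upward direction, against 14.8% of all genes. Psmb5 was at 1.09 ± 0.27 (adjusted p = 0.0665). DESeq2 called 17 members, all higher, against 5.61% of all genes it tested. In simulated data of other comparisons, unchanged genes made up 19.9 to 23.9% of the DESeq2 calls. By edgeR 21 passed without PBS 3, 16 without PBS 4 and 17 without 5-FU+ICB 4, all higher, against 6.54%, 4.2% and 3.46% of all genes. The interaction counts PBS in both effects, and without PBS 1 and 2 the median was 0.34 and no member passed. For Cisplatin with ICB the median was 0.72 with Cisplatin+ICB 1, 0.21 without it and 0.40 with the length trend removed, and with it no member passed (0% of all genes) or reached an unadjusted p under 0.05 (7.14% of all genes; Psmb5 1.41 ± 0.70, adjusted p = 0.564).

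The constitutive catalytic subunits were also set against the immunosubunits that replace them. Psmb8, Psmb9 and Psmb10 rose in ICB (log2 1.12, 1.2 and 1.11) and in 5-FU+ICB (1.01, 1.08 and 1.08), and in 5-FU they were at 0.28, 0.25 and 0.58 without passing. Psmb8 was at 225, 331, 203 and 229 CPM in PBS and at 489, 557, 533, 496 and 584 in ICB, so every ICB tumor was above every PBS tumor. A log2 ratio of a pair within a tumor is compared between groups only, since the genes differ in length. Each ratio is that of a whole tumor with its host cells, and the part of leukocytes in it was not tested. The ratio of Psmb5 to Psmb8 was -1.30 ± 0.20 in PBS (SD, n = 4), -3.38 ± 0.12 in ICB (n = 5), -2.37 ± 0.51 in 5-FU (n = 5) and -3.06 ± 0.41 in 5-FU+ICB (n = 5). The ICB tumors lay below all PBS tumors. Two-sided exact permutation tests over tumors were run for 18 comparisons and adjusted over them. The smallest p that 5 tumors against 4 can give is 0.00794.

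Against PBS, the ratio of Psmb5 to Psmb8 differed by -2.08 in ICB (exact permutation p = 0.00794, adjusted p = 0.0286), by -1.76 in 5-FU+ICB (adjusted exact permutation p = 0.0286) and by -1.07 in 5-FU (adjusted exact permutation p = 0.0357). The ratio of Psmb6 to Psmb9 was 0.90 ± 0.28 in PBS and -0.88 ± 0.07 in ICB, a difference of -1.78 (adjusted exact permutation p = 0.0286). In 5-FU+ICB that ratio differed by -1.64 (adjusted exact permutation p = 0.0357). In 5-FU it differed by -0.91 and did not pass (adjusted exact permutation p = 0.0794), and its tumors overlapped PBS. The ratio of Psmb7 to Psmb10 was 0.58 ± 0.21 in PBS and differed by -1.72 in ICB, -1.52 in 5-FU+ICB and -1.07 in 5-FU (adjusted exact permutation p = 0.0286, 0.0286 and 0.0357). Leaving out any 1 tumor ended these 8 calls, at adjusted p between 0.0536 and 0.0804, since fewer tumors raise the smallest p that can be reached, while the differences stayed below 0.

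The ratios differed less between 5-FU+ICB and ICB, at 0.32, 0.14 and 0.20 for the 3 pairs (adjusted exact permutation p = 0.1, 0.698 and 0.377). Without 5-FU+ICB 1 the first pair passed, at 0.40 (adjusted exact permutation p = 0.0476). In Cisplatin they differed from PBS by -0.23, -0.31 and -0.15 (adjusted exact permutation p = 0.45, 0.377 and 0.605). In Cisplatin+ICB they differed by -1.17, -1.08 and -1.03 with all 5 tumors, without passing, and by -1.64, -1.43 and -1.44 without tumor 1. Without it all 3 were at the smallest p that 4 tumors against 4 can give (exact permutation p = 0.0286, adjusted p = 0.0468), in a comparison chosen after seeing the data.

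**Figure D5:**
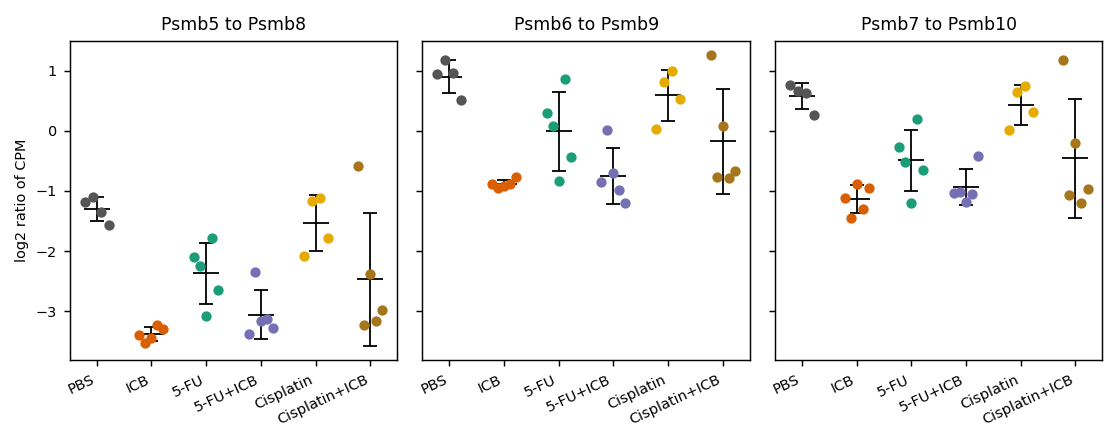
Log2 ratio of CPM (vertical axis) of Psmb5 to Psmb8, Psmb6 to Psmb9 and Psmb7 to Psmb10 in each of the 28 tumors by treatment group, with mean ± SD. ICB tumors lie below all PBS tumors for each pair (means -3.38 against -1.30 for Psmb5 to Psmb8), and Cisplatin+ICB 1 stands above the other tumors of its group.

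Other genes of the pathway moved in both directions. Of all genes tested, 21.9% fell in ICB, 15.6% in 5-FU and 22.4% in 5-FU+ICB, and 20.1%, 10.4% and 23% rose. The proteasome assembly chaperones Psmg1, Psmg2 and Psmg3, which help build the alpha ring, fell in ICB (-1.03, -0.98 and -1.05) and in 5-FU+ICB (-0.59, -0.84 and -1.14), 3 of the 5 tested genes of that list. In 5-FU, 4 of 5 fell, with Pomp, which guides beta-ring assembly, at -0.51. Among 10 associated factors, 6 fell in ICB, 4 in 5-FU and 4 in 5-FU+ICB (5, 4 and 5 with the length trend removed), including the proteasome-bound thioredoxin Txnl1 (-0.91, -0.68 and -0.80) and the deubiquitinase Usp14 (-0.63, -0.52 and -0.67). Of the 5 activators and inhibitor, the interferon-induced Psme1 and Psme2 rose in ICB (0.56 and 0.57) and Psme3 fell (-0.35), while none passed in 5-FU or 5-FU+ICB.

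Of 4 regulators of proteasome transcription, 3 rose in ICB, 2 in 5-FU and 2 in 5-FU+ICB, where 20.1%, 10.4% and 23% of all genes rose. Nfe2l1, the factor that raises subunit genes when the proteasome is inhibited, was at 0.58, 0.64 and 0.75. Ddi2, the protease that activates Nfe2l1, was at 0.79, 0.42 and 0.57, and Nfe2l2 rose in ICB (0.76). Ufd1, a cofactor of the unfoldase Vcp, fell in 5-FU and 5-FU+ICB (-0.47 and -0.36). In Cisplatin none of these genes passed.

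The lists did not depend on length and on the PBS tumors in the same way. The main transcript of Ddi2 is 9553 nt, and with the length trend removed it was at 0.26, -0.21 and 0.01 and did not pass in any group. Nfe2l1 was then at 0.38 (adjusted p = 0.0591), 0.46 and 0.58, and it passed in 5-FU and 5-FU+ICB. Without PBS 1 and 2 it was at 0.22, 0.29 and 0.39 and passed in none (adjusted p = 0.338, 0.39 and 0.108). PBS 1 and 2 were at 141 and 98.8 CPM of Nfe2l1, PBS 3 and 4 at 240 and 218, and the 5-FU tumors at 238 to 307. All 3 immunosubunits still rose in ICB and 5-FU+ICB with the length trend removed, and also without PBS 1 and 2, where Psmb8 was at 1.38 in ICB and 1.27 in 5-FU+ICB. Psmg2, Psmg3 and Txnl1 still fell in ICB and 5-FU+ICB with the length trend removed. Without PBS 1 and 2, 1 assembly chaperone (Psmg2, -0.59) fell in ICB, 1 (Psmg3, -0.57) in 5-FU+ICB and none in 5-FU. Of all genes, 4.4%, 2.9% and 0.285% then fell in these groups.

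Markers of other cells also differed between some of these groups. The 12 leukocyte markers summed to 689 to 820.5 CPM in PBS, 1664 to 3915 in ICB, 777 to 2348 in 5-FU, 693 to 2880 in 5-FU+ICB, 575 to 997 in Cisplatin and 507 to 2015 in Cisplatin+ICB. Of the 11 tested, 9 rose in ICB, 5 in 5-FU and 7 in 5-FU+ICB, against 20.1%, 10.4% and 23% of all genes, and the neutrophil marker Ly6g was under 1 CPM in PBS and ICB. The 8 proliferation markers summed to 1420 to 2039 CPM in PBS, 539 to 1516 in ICB, 801 to 1673 in 5-FU and 519 to 1975 in 5-FU+ICB, and 5, 4 and 5 of the 8 fell, against 21.9%, 15.6% and 22.4% of all genes. The mesothelial markers summed to 333 to 476 CPM in PBS, 147 to 298 in ICB, 174 to 279 in 5-FU and 129 to 302 in 5-FU+ICB. That fall was in Msln, at 271 to 358 CPM in PBS, 51.9 to 216 in ICB, 45.0 to 177 in 5-FU and 0.50 to 167 in 5-FU+ICB, where tumor 5 was the lowest. Pdpn was at 60.6 to 118 CPM in PBS, 80.9 to 113 in ICB, 93.9 to 127 in 5-FU and 71.2 to 155 in 5-FU+ICB, and so was not below PBS. The fibroblast markers summed to 3889 to 9167 CPM in PBS and 10386 to 16047 in 5-FU. ICB (3695 to 7404) and 5-FU+ICB (3696 to 13131) overlapped PBS. The endothelial markers summed to 61.8 to 121 CPM in PBS, 127 to 265 in ICB and 131 to 312 in 5-FU, with every tumor of both groups above PBS. The skeletal muscle markers summed to a median of 143 CPM in PBS, 43.6 in ICB, 1107 in 5-FU and 744 in 5-FU+ICB. They reached 3181 in ICB 3 and 4478 in 5-FU+ICB 5. The part of these cell types in the fall of the constitutive subunits and in the ratios to the immunosubunits was not tested.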

How the data were processed

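Gene expression was measured by bulk RNA-seq in 28 whole tumors. According to the submitters' processing notes and the study's methods, the authors demultiplexed reads with bcl2fastq 2.20.0.422, quantified GRCm38/mm10 transcripts with kallisto 0.46.0 and used tximport. They deposited estimated counts (expected counts) per gene name in 2 matrices, in which 23.7% of values were not whole. Both matrices hold the same PBS and ICB libraries, 9 tumors with identical values, which were counted once. Counts were rounded. edgeR 4.0.16 (R 4.3.3) was fitted to all groups of a matrix, or to all 28 tumors for 5-FU against Cisplatin, with filterByExpr by group, TMM and glmQLFTest, and p-values were adjusted by Benjamini-Hochberg over all 17916, 17819 or 18521 genes. DESeq2 1.42.0 was an alternative. CPM use TMM over 28 tumors. Tests were checked on simulated data of ICB and Cisplatin against PBS and of 5-FU against Cisplatin, and not of the interactions. There, unchanged genes made up 19.9 to 23.9% of the DESeq2 calls and 2.05 to 8.05% of the edgeR calls.

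The members, lists, tests and the named genes (smallest p among members, plus Psmb5, Psmb6 and Psmb7) were chosen with earlier results of these data known. The length trend was removed by a lowess curve per tumor as an offset. Depth was 23541733 to 33950805 counts, so 3 counts are 0.0884 to 0.127 CPM. kallisto assigns reads shared between similar transcripts by estimation, which can split counts between a gene and its copies. Labels do not state separate experiments, so p-values measure the spread between these tumors. Replicate numbers did not pair tumors across groups. Protein sequences were not used here.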

Additional observations from a re-analysis of the deposited data

Results flagged for a closer look

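Of 84 sets of tumors (14 values, the mean log2 CPM of the members and the CPM of each gene with full statistics, in 6 groups), 18 had an end value far from the nearest other tumor by Dixon's test, where chance gives about 1 in 20, or 4.2. In Cisplatin+ICB 1, 12 values stood above the group: Psma1 at 385 CPM (next highest 115), Psmb5 at 315 (52.8), Psmb6 at 549.7 (119), Psmb7 at 426 (118), Psmc1 at 182 (122), Psmc5 at 223 (99.0), Psmd4 at 407 (110.3), Psmd5 at 233 (47.6), Psmd7 at 202 (122), Psmd8 at 632 (199), Psmd14 at 455 (94.5) and the mean log2 CPM over the members at 8.08 (6.52). In 5-FU 2, Psmb7 at 142 CPM (121), Psmc1 at 147 (121), Psmd7 at 162 (133) and Psmd14 at 117 (93.0) stood above the group. Psmb6 was low in 5-FU+ICB 4, at 93.2 CPM (next lowest 132), and Psmd1 was high in PBS 3, at 250.2 CPM (218).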

How the results depend on the processing

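Members passing against PBS in ICB, 5-FU and 5-FU+ICB numbered 24, 25 and 20, against 21.9%, 15.6% and 22.4% of all genes that fell. DESeq2 called 24, 25 and 19, against 17.8%, 14.7% and 17.2% of all genes. A replicate block gave 24, 25 and 20, against 19.3%, 13.4% and 20.4%, although replicate numbers did not pair tumors (66 same-number correlations ran from -0.629 to 0.665). With no low-count filter 10 passed in 5-FU and 8 in 5-FU+ICB, against 3.3% and 7.06% of all genes. A log2 fold change over 0.5 as well left 11 in 5-FU+ICB, against 18.7%. Fitting the compared groups alone left 9 in 5-FU and 2 in 5-FU+ICB, against 11.5% and 11.8%. Joining all 6 groups, with Cisplatin+ICB 1 among them, left 7, 0 and 0, against 13.6%, 1.84% and 13.8%, and the matrix of the cisplatin groups left 4 in ICB, against 11.7%. Chosen after seeing the data, leaving out PBS 1 and 2 left 2, 0 and 0, against 4.4%, 0.285% and 2.9% of all genes. Removing the length trend, also chosen after seeing the data, left 15 in 5-FU and 10 in 5-FU+ICB, against 13.4% and 23.6%. It gave 1 in Cisplatin+ICB, against 2.15%, and 24 there without its tumor 1 as well, against 22.9%. DESeq2 called 17 members for the interaction of 5-FU with ICB, all higher, against 5.61% of all genes. The cause of these shifts was not tested.

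Leaving out 1 tumor, 17 to 26 members passed in ICB (1 of 22, Psma8, as higher without PBS 1), 7 to 29 in 5-FU, 6 to 25 in 5-FU+ICB, 0 to 25 in Cisplatin+ICB and 0 to 21 in the interaction of 5-FU with ICB. The shares of all genes that fell ran from 15.6 to 22%, 5.24 to 17.4%, 15.2 to 27.1% and 0 to 21%, and the share that was higher in the interaction from 0 to 6.54%. The log2 ratio differences from PBS ran from -2.16 to -2.01, -1.91 to -1.69 and -1.82 to -1.64 in ICB (Psmb5 to Psmb8, Psmb6 to Psmb9, Psmb7 to Psmb10), from -1.93 to -1.68, -1.83 to -1.53 and -1.65 to -1.46 in 5-FU+ICB, and from -1.64 to -0.97, -1.43 to -0.93 and -1.44 to -0.84 in Cisplatin+ICB. In 5-FU they ran from -1.22 to -0.89 (Psmb5 to Psmb8) and -1.24 to -0.90 (Psmb7 to Psmb10). Between 5-FU+ICB and ICB they ran from 0.14 to 0.40 (Psmb5 to Psmb8) and from -0.0542 to 0.25 (Psmb6 to Psmb9), below 0 without 5-FU+ICB 2. Summarised by the median over members instead of the mean, log2 CPM was 7.37 in PBS, 6.83 in ICB, 6.85 in 5-FU and 6.94 in 5-FU+ICB. Depth limits only Psma8 and Psmb11.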
